A study of Drosophila melanogaster with 4 samples.

Results

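The genes described here act where motor neurons meet muscle and where the muscle turns excitation into contraction. They were chosen by symbol from a list of 10 names, the glutamate receptor subunits GluRIIA, GluRIIB, GluRIIC, GluRIID and GluRIIE, the calcium handling genes RyR, SERCA and Ca-alpha1D, and the ion channel genes para and slo. All 10 were found among the 13012 genes of the deposited table. Thoraces were dissected from female flies, labelled as 10 days old and on a high calorie diet, and RNA from 8 thoraces went into each RNA-seq library. The groups were Act88FGS>MEF2RNAi flies with RU486, Act88FGS>MEF2RNAi flies on the ethanol control (-RU486), Act88FGS>w1118 flies with RU486 and Act88FGS>w1118 flies on the ethanol control. All 4 groups carried the Act88FGS driver, crossed to the MEF2RNAi line or, for controls, to w1118. Act88FGS is a GeneSwitch line built on the promoter of Act88F, a flight muscle actin gene. It is active upon feeding of RU486, so an induced knockdown is aimed at thoracic muscle while RNA was taken from the whole thorax. Each condition had 1 library, so none of the differences below has a replicate check, an error or a p-value.

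In Drosophila the junction between motor neuron and muscle uses glutamate. Its receptors are channels assembled from GluRIIC, GluRIID and GluRIIE together with either GluRIIA or GluRIIB, and the choice between GluRIIA and GluRIIB sets how fast the channel desensitizes. Depolarization of the muscle opens voltage-gated calcium channels of the L type, whose pore is Ca-alpha1D. Calcium is released from the sarcoplasmic reticulum through the ryanodine receptor, RyR, and is pumped back by SERCA. The voltage-gated sodium channel para carries action potentials in neurons, and slo is a potassium channel opened by calcium and voltage in neurons and muscle. In indirect flight muscle, contraction is triggered by stretch while calcium keeps the muscle active.

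The deposited values are on a log2 scale and centred gene by gene, the 4 values adding up to 0. Each tells how far a library lay from the mean of that gene, not how strongly the gene was expressed, and the depth of the libraries is unknown. The libraries differed in their common level. Over all genes the median value was -0.18 for MEF2RNAi flies with RU486, 0.19 in MEF2RNAi flies without it, 0.17 in w1118 flies with RU486 and -0.18 in w1118 flies without it. Changes are given on this deposited scale first. Where it matters they are also given relative to the all-gene median of each library, or to the median of 85 genes for cytosolic ribosomal proteins. The rank of a gene among all genes does not move with the library level, and it is given as a percentile, the percent of genes with a lower log2 fold change. Mef2, the targeted gene, changed with RU486 by -0.63 on the log2 scale in MEF2RNAi flies, a fold change of 0.647 and percentile 6.63. In controls it changed by 0.32. Over all genes the median changes were -0.38 and 0.36, so these deposited changes of Mef2 include the library level. A fold change at or below 0.65 in MEF2RNAi flies was found for 6.99% of all genes. The change of Mef2 relative to all genes is not given here. The 10 muscle markers checked were all in the table, and each had a value farther than 0.1 from 0 in at least 1 library. All 9 germline markers were highest in the library of MEF2RNAi flies given RU486, where their median was 1.13, against -0.43, -0.19 and -0.50 in MEF2RNAi flies without RU486, w1118 flies with it and w1118 flies without it. The part of germline RNA in the values below was not tested. In whole thoraces, fewer cells of a type and less RNA per cell cannot be told apart.

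**Figure D1:**
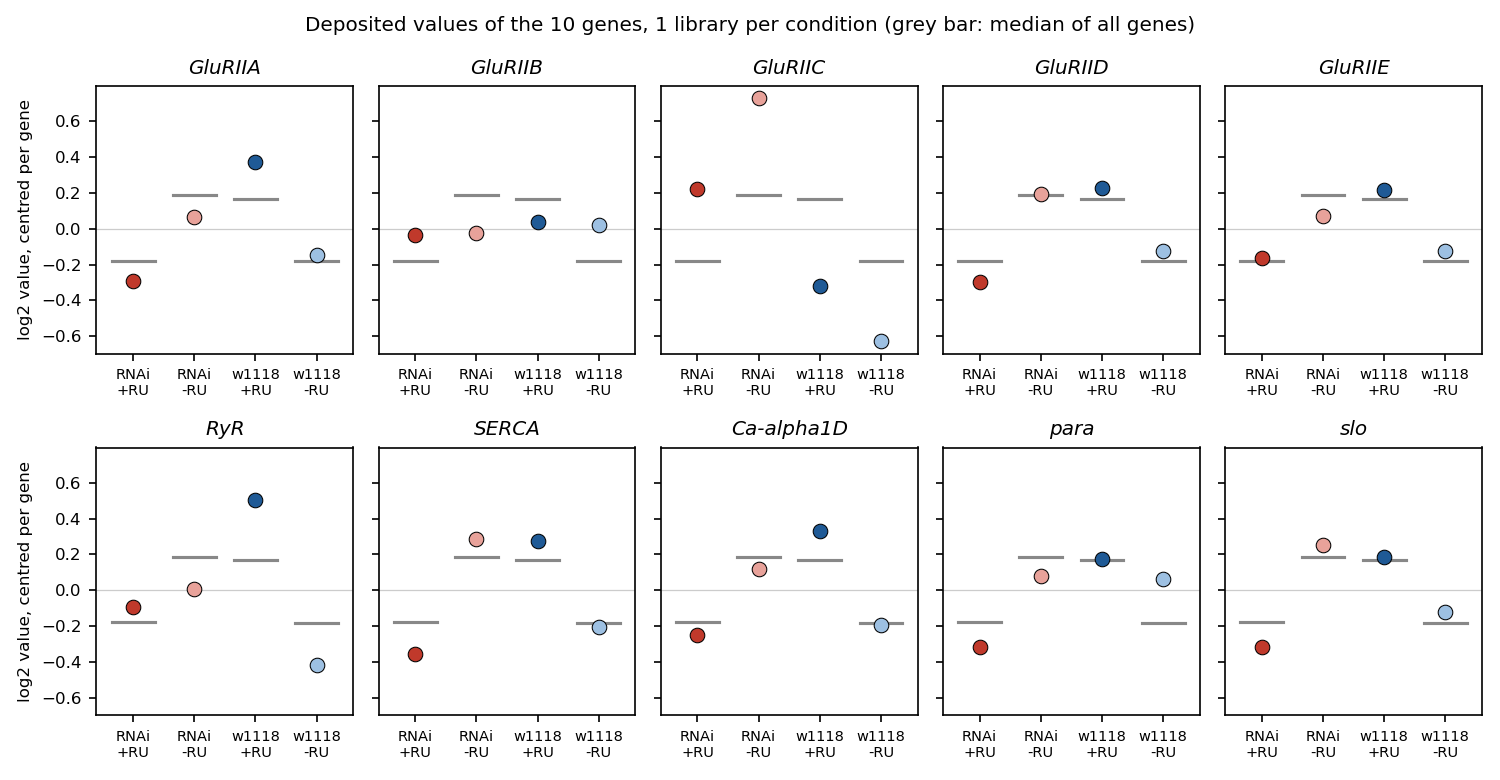
Deposited log2 values, centred per gene, of the 10 genes (vertical axis) in the 4 libraries (horizontal axis, 1 point per library), with a grey bar at the median of all genes in that library. GluRIIC sits at 0.22 and 0.73 in the MEF2RNAi libraries and at -0.32 and -0.63 in the w1118 libraries, while GluRIIB stays within 0.1 of 0 in all 4.

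To ask how these genes responded when MEF2 was attenuated, the libraries with and without RU486 were compared within each genotype. On the deposited scale all 10 genes had lower values with RU486 in MEF2RNAi flies and higher values with RU486 in controls, as did 83.7% of all genes. Their median log2 fold change was -0.38 in MEF2RNAi flies (all genes, -0.38) and 0.35 in controls (all genes, 0.36), so as a group they lay at the median of the table. Between genes the spread was wide, from -0.64 for SERCA to -0.01 for GluRIIB in MEF2RNAi flies, and from 0.01 for GluRIIB to 0.92 for RyR in controls. By the limits that the study used, a fold change at or below 0.65 in MEF2RNAi flies and not in controls, 1 of the 10 genes was called, SERCA, with 6.96% of all genes called. The gene next to the limit on its other side was slo, at 0.675. None of the 10 reached a fold change of 1.5 in MEF2RNAi flies and not in controls, where 0.576% of all genes did. Without the condition on controls, SERCA was again the 1 gene at or below 0.65 (6.99% of all genes) and none reached 1.5 (0.807%). In controls none was at or below 0.65 (0.0384%). Relative to all genes none of the 10 met the criterion for lower (0.3% of all genes) or higher genes (1.64%), nor did any on the ribosomal scale (0.0922% and 2.96%).

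Which library held the extremes differed between genes. The lowest value was that of MEF2RNAi flies with RU486 for 8 of the 10 genes (48.2% of all genes) and that of w1118 flies without RU486 for GluRIIC and RyR (47.4%). None was lowest in MEF2RNAi flies without RU486 (2.14%) or in w1118 flies with RU486 (2.24%). The highest value was that of w1118 flies with RU486 for 7 genes (44.6%) and that of MEF2RNAi flies without RU486 for GluRIIC, SERCA and slo (49.3%). None was highest in MEF2RNAi flies with RU486 (3.97%) or in w1118 flies without it (2.11%).

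**Figure D2:**
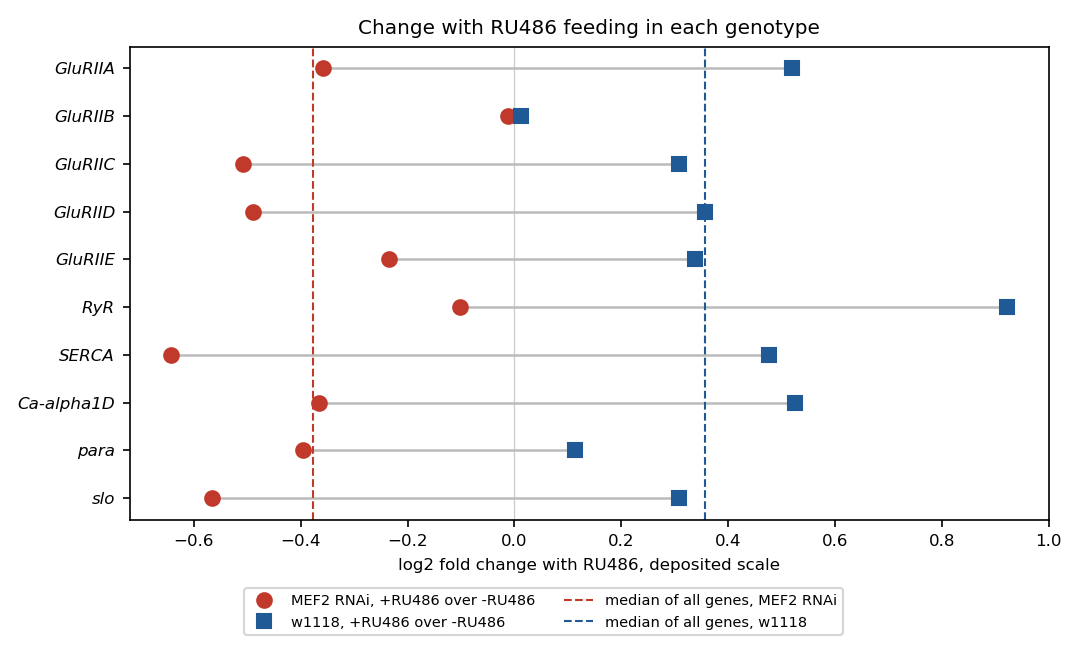
Log2 fold change with RU486 on the deposited scale (horizontal axis) for each of the 10 genes in MEF2RNAi flies (red circles) and in w1118 flies (blue squares), with dashed lines at the medians of all genes (-0.38 and 0.36). SERCA is the lowest of the 10 in MEF2RNAi flies at -0.64, and RyR is the highest in w1118 flies at 0.92.

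The essential receptor subunit GluRIIC (FBgn0046113, chromosome 2L, 914086 to 917805 in BDGP6) stood apart from the other receptor genes. Its values were 0.22 in MEF2RNAi flies with RU486 and 0.73 without it, against -0.32 in w1118 flies with RU486 and -0.63 without it. Both MEF2RNAi libraries were thus above both w1118 libraries, which was so for 3.31% of all genes. The gap between the groups, from the lower MEF2RNAi value to the higher w1118 value, was 0.54, and 6 of the 13012 genes had a larger gap. The range of its 4 values was 1.36, and 0.653% of genes had a larger range. Its fold changes with RU486 were 0.703 in MEF2RNAi flies (percentile 21.5) and 1.24 in controls (percentile 41.6).

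Compared between genotypes, GluRIIC was 1.46-fold higher in MEF2RNAi flies than in w1118 flies when both had RU486, and 2.56-fold higher when neither did. Only 8 genes had a larger ratio in the comparison without RU486, and 83 genes did in the comparison with it. On the scale of all genes the log2 differences were 0.89 with RU486 and 0.99 without it, and on the ribosomal scale they were 0.95 and 0.81. GluRIIC was thus higher in MEF2RNAi flies in both comparisons and on every scale tried. The excess was present without RU486, when the driver is not induced. Effects of the RNAi line itself and of RNAi without RU486 cannot be told apart with these libraries.

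GluRIID and GluRIIE, the other subunits that every receptor needs, did not share this pattern. GluRIID (FBgn0028422, chromosome 3R, 20648595 to 20652450 in BDGP6) had values of -0.30 and 0.19 in MEF2RNAi flies with and without RU486, against 0.23 and -0.13 in w1118 flies with and without it. GluRIIE (FBgn0051201, chromosome 3R, 20644154 to 20648716) had -0.16 and 0.07 in MEF2RNAi flies, against 0.21 and -0.12 in w1118 flies. Both were lowest in MEF2RNAi flies with RU486 and highest in w1118 flies with RU486. A difference between 2 genes does not depend on the level of the libraries. The log2 ratio of MEF2RNAi to w1118 was larger for GluRIIC than for GluRIID by 1.07 with RU486 and by 1.04 without it, and larger for GluRIIC than for GluRIIE by 0.92 and 1.16. The changes with RU486 were close for GluRIIC and GluRIID, with a difference of -0.02 for MEF2RNAi flies and -0.05 for controls. GluRIID and GluRIIE lie side by side on the same strand, and their annotated ends share 122 bases. How reads in the shared stretch were counted is not given in the sources used here.

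GluRIIA and GluRIIB, the subunits that take turns in the receptor, are neighbours on chromosome 2L with 347 bases between them. GluRIIA (FBgn0004620, 5555072 to 5558994 in BDGP6) had values of -0.29 and 0.07 in MEF2RNAi flies with and without RU486, against 0.37 and -0.15 in w1118 flies with and without it. It was therefore lowest in MEF2RNAi flies with RU486 and highest in w1118 flies with RU486. Its fold change with RU486 was 0.780 in MEF2RNAi flies (percentile 52.8) and 1.43 in controls (percentile 86.8). After rescaling to all genes, its log2 change was 0.01 in MEF2RNAi flies and 0.17 in controls, so the direction in MEF2RNAi flies turned with the scale. Its first 66 bases overlap CG14017, a gene on the same strand whose values stayed between -0.02 and 0.05.

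GluRIIB (FBgn0020429, 5559342 to 5563502) hardly varied. It had -0.03 and -0.02 in MEF2RNAi flies with and without RU486, against 0.04 and 0.02 in w1118 flies with and without it. Its range of 0.07 was narrower than that of 95.1% of genes, and 16.1% of all genes likewise had no value farther than 0.1 from 0. Values so near 0 come without an expression level here, so they do not tell a steady gene from one with hardly any reads. GluRIIB did not follow the common level of the libraries. Relative to all genes its log2 change with RU486 was therefore 0.35 in MEF2RNAi flies and -0.34 in controls, in place of -0.01 and 0.01. The log2 change of GluRIIA minus that of GluRIIB was -0.35 for MEF2RNAi flies and 0.51 for controls, whatever the scale. With GluRIIB nearly flat, these differences are close to the deposited changes of GluRIIA itself, -0.36 and 0.52. Setting GluRIIA against such a gene does not remove the library level from its changes.

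Of the calcium handling genes, SERCA had the lowest change upon RU486 feeding in MEF2RNAi flies, on each of the scales. SERCA (FBgn0263006, chromosome 2R, 23925077 to 23935884 in BDGP6) had values of -0.36 and 0.29 in MEF2RNAi flies with and without RU486, against 0.27 and -0.20 in w1118 flies with and without it. The values pair across the genotypes, low in MEF2RNAi flies with RU486 and in w1118 flies without it, as the medians of the libraries do. Its fold change was 0.641 in MEF2RNAi flies (percentile 5.74) and 1.39 in controls (percentile 77.6). The log2 change was -0.64 in MEF2RNAi flies, and it became -0.28 on the scale of all genes and -0.17 on the ribosomal scale. In controls it was 0.48, and became 0.13 and -0.01. The direction in MEF2RNAi flies was thus the same on every scale, and the one in controls was not. By the difference between the genotypes' changes, -1.12 on the log2 scale, SERCA lay at percentile 2.74. The pump gene overlaps CG2812, a gene on the other strand, by 1676 bases.

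RyR (FBgn0011286, chromosome 2R, 8860364 to 8888097) had a different profile. It had -0.10 and 0.01 in MEF2RNAi flies with and without RU486, against 0.51 and -0.42 in w1118 flies with and without it. The MEF2RNAi libraries lay between the w1118 libraries. In controls the fold change with RU486 was 1.90, and 170 genes of the table had a larger one. RyR was the only one of the 10 to reach 1.5 in controls, where 6.54% of all genes did. This control change was positive on every scale, with a log2 value of 0.92 as deposited, 0.57 on the scale of all genes and 0.43 on the ribosomal scale. In MEF2RNAi flies the fold change was 0.931 (percentile 75.3). The log2 change there was -0.10 as deposited and 0.26 and 0.37 on the other scales, so its direction turned. Independent of the scale, the change with RU486 was lower for SERCA than for RyR in both genotypes, with differences of -0.54 in MEF2RNAi flies and -0.45 in controls.

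Ca-alpha1D (FBgn0001991, chromosome 2L, 16165831 to 16190540), the calcium channel pore, had -0.25 and 0.12 in MEF2RNAi flies with and without RU486, against 0.33 and -0.20 in w1118 flies with and without it. It was lowest in MEF2RNAi flies with RU486 and highest in w1118 flies with RU486, like GluRIIA. Its fold change was 0.776 in MEF2RNAi flies (percentile 51.7) and 1.44 in controls (percentile 87.5). On the scale of all genes the log2 changes were close to 0.00 in MEF2RNAi flies and 0.18 in controls.

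The remaining members were the sodium and potassium channel genes para and slo. The sodium channel para (FBgn0285944, chromosome X, 16455027 to 16533096) had -0.32 and 0.08 in MEF2RNAi flies with and without RU486, against 0.18 and 0.06 in w1118 flies with and without it. It was low in 1 library, MEF2RNAi with RU486, and above 0 in the other 3. A value above 0 in w1118 flies without RU486 was found for 6.81% of all genes. The fold change of para was 0.760 in MEF2RNAi flies (percentile 46.6) and 1.08 in controls (percentile 20.4). The potassium channel slo (FBgn0003429, chromosome 3R, 24662491 to 24711595) had -0.32 and 0.25 in MEF2RNAi flies, against 0.19 and -0.12 in w1118 flies with and without RU486. Its fold changes were 0.675 in MEF2RNAi flies (percentile 11.7) and 1.24 in controls (percentile 41.6). The 10 neuron markers, among them elav and nSyb, had median values of -0.32 and 0.19 in MEF2RNAi flies with and without RU486, against 0.23 and -0.08 in w1118 flies. In w1118 flies without RU486 they ranged up to -0.004, so that para was above all of them in that library. The part of neuronal RNA in the values of para, slo and the other genes described here was not tested.

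When the genotypes were compared under RU486, the condition in which the knockdown is induced, 9 of the 10 genes had lower values in MEF2RNAi flies than in w1118 flies (all genes, 93.6%), GluRIIC being the exception. The median log2 ratio of the 10 genes was -0.51, against -0.36 for all genes. A ratio at or below 0.65 was found for GluRIIA (0.629) and SERCA (0.647), where 3.87% of all genes had one. None reached 1.5 (0.599% of all genes). RyR followed with 0.659 and Ca-alpha1D with 0.670. These 4 genes ranked in the lowest 10% of the table, at percentiles 2.36 for GluRIIA, 3.52 for SERCA, 5.01 for RyR and 6.73 for Ca-alpha1D. Each stayed lower in MEF2RNAi flies on every scale, with log2 ratios between -0.32 and -0.23 relative to all genes and between -0.26 and -0.17 relative to ribosomal protein genes. The remaining genes with ratios below 1 were GluRIID (0.695), slo (0.705), para (0.710), GluRIIE (0.770) and GluRIIB (0.952). In the same comparison the 26 muscle structure genes had a median of -0.58 and the 10 neuron markers -0.52. This comparison shares its libraries with those of RU486 feeding, so it does not repeat them independently.

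**Figure D3:**
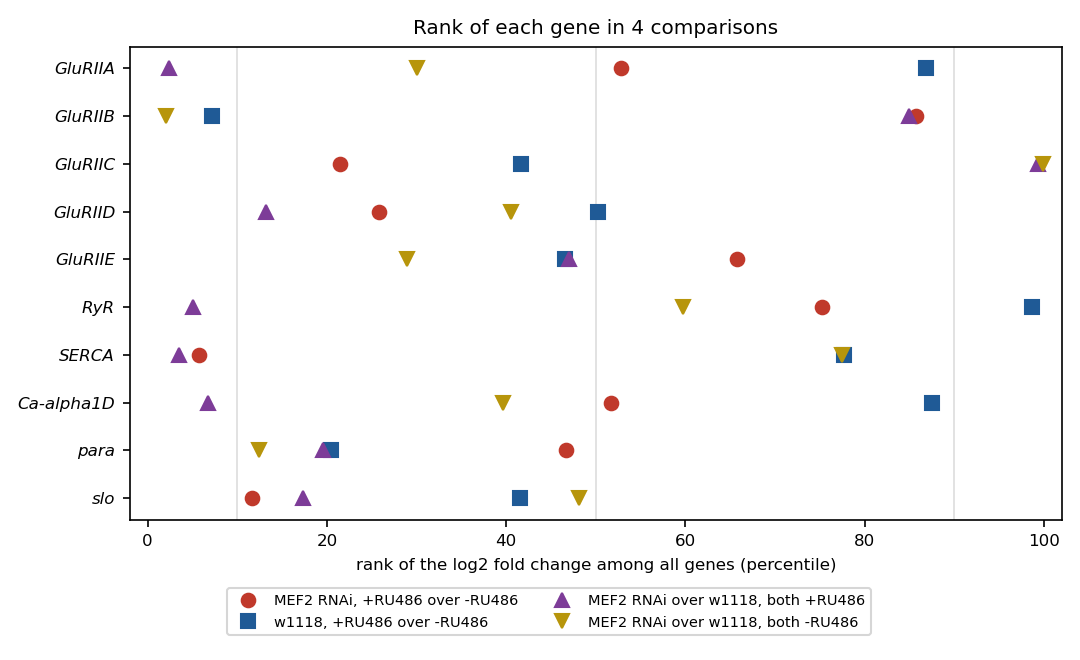
Percentile of the log2 fold change of each of the 10 genes among all genes of the table (horizontal axis) in 4 comparisons that share libraries (marker shapes), with grey lines at the 10th, 50th and 90th percentiles. GluRIIA, SERCA, RyR and Ca-alpha1D are in the lowest 10% of MEF2RNAi over w1118 with RU486, and GluRIIC is above percentile 99 with and without RU486.

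Without RU486, where neither genotype is induced, the order was different. The median log2 ratio of MEF2RNAi to w1118 was 0.32 for the 10 genes and 0.38 for all genes. SERCA was 1.40-fold, RyR 1.34-fold, Ca-alpha1D 1.24-fold and GluRIIA 1.16-fold higher in MEF2RNAi flies, and none of these reached 1.5. GluRIIC was the 1 gene of the 10 past this limit, where 6% of all genes were, and none was at or below 0.65 (0.00769%). At the other end, para had a ratio of 1.01 (percentile 12.4) and GluRIIB of 0.968 (percentile 2.01). GluRIIB had no value farther than 0.1 from 0. Its low rank goes with the all-gene median of 0.38 and does not tell a steady gene from one with hardly any reads. Of these genes, SERCA and RyR had positive log2 ratios of 0.12 and 0.06 relative to all genes, and negative ones of -0.06 and -0.13 relative to ribosomal protein genes.

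**Figure D4:**
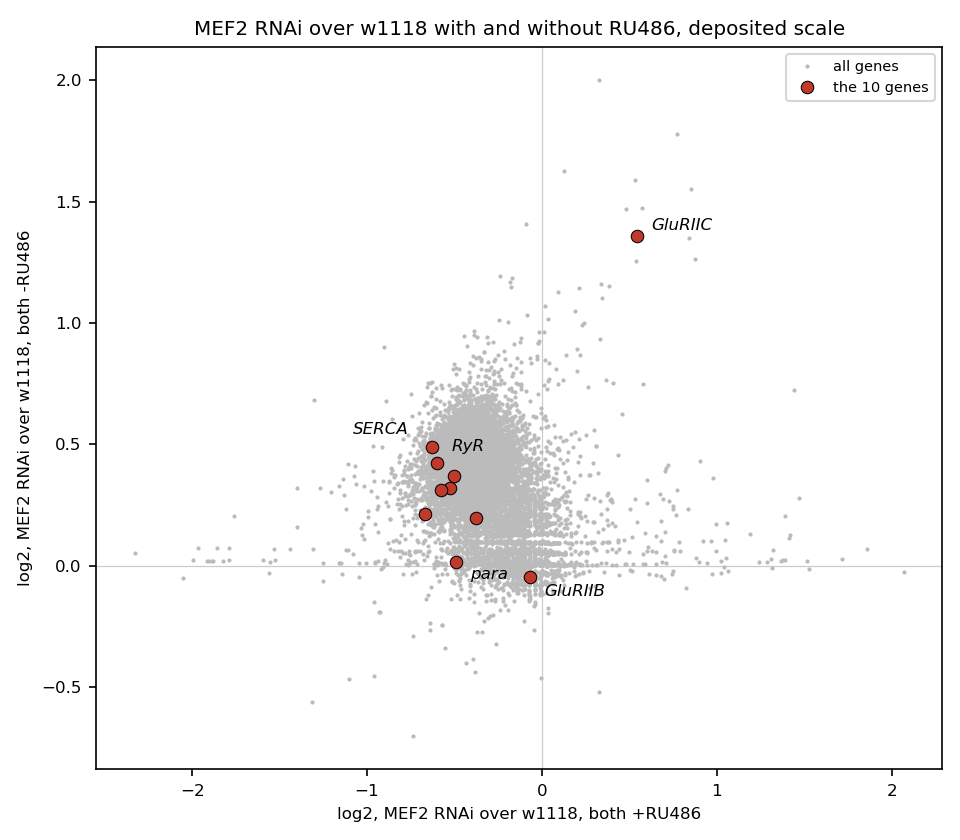
Log2 ratio of MEF2RNAi to w1118 flies with RU486 (horizontal axis) against the same ratio without RU486 (vertical axis) for all genes (grey) and the 10 genes (red). GluRIIC lies at 0.54 and 1.36, away from the other receptor and calcium genes, and para and GluRIIB lie near 0 on the vertical axis.

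For the 3 genes with the largest range, the genes of the table with the nearest pattern were found by root mean square distance over the 4 libraries, among the 10914 genes with a value farther than 0.1 from 0. GluRIIC had 3 genes within 0.1, which were AttA (distance 0.05), AttC (0.05) and CG4757 (0.06). AttA and AttC encode attacins, antimicrobial peptides of the immune response, and AttA had values of 0.21 and 0.81 in MEF2RNAi flies, against -0.36 and -0.66 in w1118 flies with and without RU486. For RyR, 106 genes lay within 0.1, the nearest being CG9596, CG11414 and CG9776. For GluRIIA, 1343 genes did, with esn, Cyp9f3 and CG5819 the nearest. Patterns like those of GluRIID (5306 genes), slo (4999), SERCA (4113), Ca-alpha1D (3896) and GluRIIE (3617) were common among these genes, whereas 321 of them came as close to para.

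Genes that work beside the receptors were followed as a list of 24, holding proteins that anchor or regulate them and glutamate receptors of other classes. All 24 had lower values with RU486 in MEF2RNAi flies (88.9% of all genes) and 23 had higher values in controls (93.1%). The list medians were -0.46 and 0.40 on the log2 scale. Of the 24 genes, 3 met the criterion of the study for lower genes, as did 6.96% of all genes, and none that for higher genes (0.576%). On the scale of all genes none of the 24 met either (0.3% of all genes lower and 1.64% higher). The same was so on the ribosomal scale (0.0922% and 2.96%). Nlg1, a neuroligin of the postsynaptic muscle membrane, had a fold change of 0.539 in MEF2RNAi flies and 1.13 in controls. The kainate-type receptor gene clumsy had 0.602 and 1.03, and Grip, a scaffold protein of muscle, had 0.635 and 1.22. Ekar, another kainate-type receptor, was lower with RU486 in both genotypes, with fold changes of 0.860 and 0.900. Grik had 0.728 and 1.47. CG3822, listed elsewhere as KaiR1D, had 0.872 and 1.37.

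The list for calcium channel subunits other than Ca-alpha1D held 8 genes in the table. Among them were na, unc79 and unc80, which belong to a sodium leak channel. In MEF2RNAi flies the 8 genes changed within narrow bounds, from -0.53 to -0.41 on the log2 scale. None of the 8 met the criterion for lower genes (6.96% of all genes) or that for higher genes (0.576%). In controls they ranged from -0.05 to 0.53. The pore gene cac, which serves transmitter release in neurons, had fold changes of 0.730 in MEF2RNAi flies and 1.05 in controls, and Ca-beta, the auxiliary subunit, had 0.703 and 1.36. CG4587 had 0.693 and 0.964, and unc79 had 0.731 and 1.44.

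The list for the sarcoplasmic reticulum and calcium transport held 15 genes in the table, with median log2 changes of -0.50 in MEF2RNAi flies and 0.49 in controls. Among the genes that met the criterion for lower genes were Amph, which shapes the membrane tubules of the muscle (fold change 0.579 in MEF2RNAi flies and 0.993 in controls), and Letm1, an ion exchanger of the inner mitochondrial membrane (0.620 and 1.22). None of the 15 met this criterion on the scale of all genes (0.3% of all genes) or on the ribosomal scale (0.0922%). In controls 2 of the 15 reached 1.5 as deposited (6.54% of all genes), 1 did on the scale of all genes and none on the ribosomal scale. The share of all genes that reached 1.5 in controls on the rescaled levels is not given here. The channel gene olf186-F, the fly Orai through which stores are refilled, had 0.870 in MEF2RNAi flies and 2.03 in controls, and the sodium-calcium exchanger Calx had 0.745 and 1.55. The values of olf186-F were -0.22 and -0.02 in MEF2RNAi flies and 0.63 and -0.39 in w1118 flies with and without RU486, the same order of libraries as for RyR. SclB, a small peptide that binds SERCA, stayed near its mean, with fold changes of 0.878 and 1.03.

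Among 16 genes of calcium signalling, all were lower with RU486 in MEF2RNAi flies (88.9% of all genes) and all were higher in controls (93.1%). The list medians were -0.55 and 0.31. The criterion for lower genes was met by 4 of the 16 as deposited (6.96% of all genes). None met it on the scale of all genes (0.3% of all genes) or on the ribosomal scale (0.0922%). CanA1, a catalytic subunit of the phosphatase calcineurin, had fold changes of 0.589 in MEF2RNAi flies and 1.22 in controls, and sra, a regulator of calcineurin, had 0.606 and 1.11. NFAT had log2 changes of -0.68 and 0.33, and Frq2, a calcium sensor of nerve terminals, had fold changes of 0.620 and 1.18. The regulatory subunit CanB had 0.700 and 1.18, and Frq1 had 0.727 with hardly a change in controls (0.002 on the log2 scale).

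The list for sodium and potassium channels held 31 genes, among them the chloride channel ClC-a and the pump subunits Atpalpha, nrv1 and nrv3. As deposited, none of the 31 met the criterion for lower genes (6.96% of all genes) or that for higher genes (0.576%). The list medians were -0.43 in MEF2RNAi flies and 0.38 in controls. On the ribosomal scale 1 of the 31, sand, met the criterion for higher genes, as did 2.96% of all genes. In controls 4 of the 31 reached 1.5 as deposited, with 6.54% of all genes, and none on the other scales. The share of all genes that did so on the other scales is not given here. Irk3, an inward rectifier, had fold changes of 0.750 in MEF2RNAi flies and 1.64 in controls, and sand, a leak potassium channel, had 1.10 and 1.64. Teh3, an accessory protein of para, had 0.804 and 1.61, and the delayed rectifier Shab had 0.787 and 1.59. The other genes at the ends of the list were Irk2 (0.706 and 1.45), Elk (0.849 and 1.11) and SK (0.767 and 1.03).

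For comparison, 8 of the 26 muscle structure genes met the criterion for lower genes as deposited, where 6.96% of all genes did, with medians of -0.54 in MEF2RNAi flies and 0.51 in controls. They were Zasp52, Zasp66, Prm, bt, sls, Act57B, Mlc1 and tmod, with fold changes from 0.585 for bt to 0.648 for tmod. Reaching 1.5 in controls, as 6.54% of all genes did, were Mlc2, fln, Act79B, Act87E, wupA and Actn, from 1.52 for Actn to 1.72 for Mlc2. On the scale of all genes and on the ribosomal scale, none of the 26 met the criterion (0.3% and 0.0922% of all genes). None reached 1.5 in controls on these scales, for which the share of all genes is not given here. Mhc had 0.653 and 1.48, Zasp67 0.732 and 0.974, and TpnC4 0.738 and 0.928. On the scale of all genes, the list medians in MEF2RNAi flies were -0.19 for calcium signalling and -0.18 for muscle structure. They were -0.14 for the sarcoplasmic reticulum list and -0.10 both for receptor partners and for the calcium channel list. The sodium and potassium channel list was at -0.06, and the 10 genes were at -0.02. Relative to ribosomal protein genes the list medians lay between -0.08 and 0.04, and the 10 genes at 0.09.

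**Figure D5:**
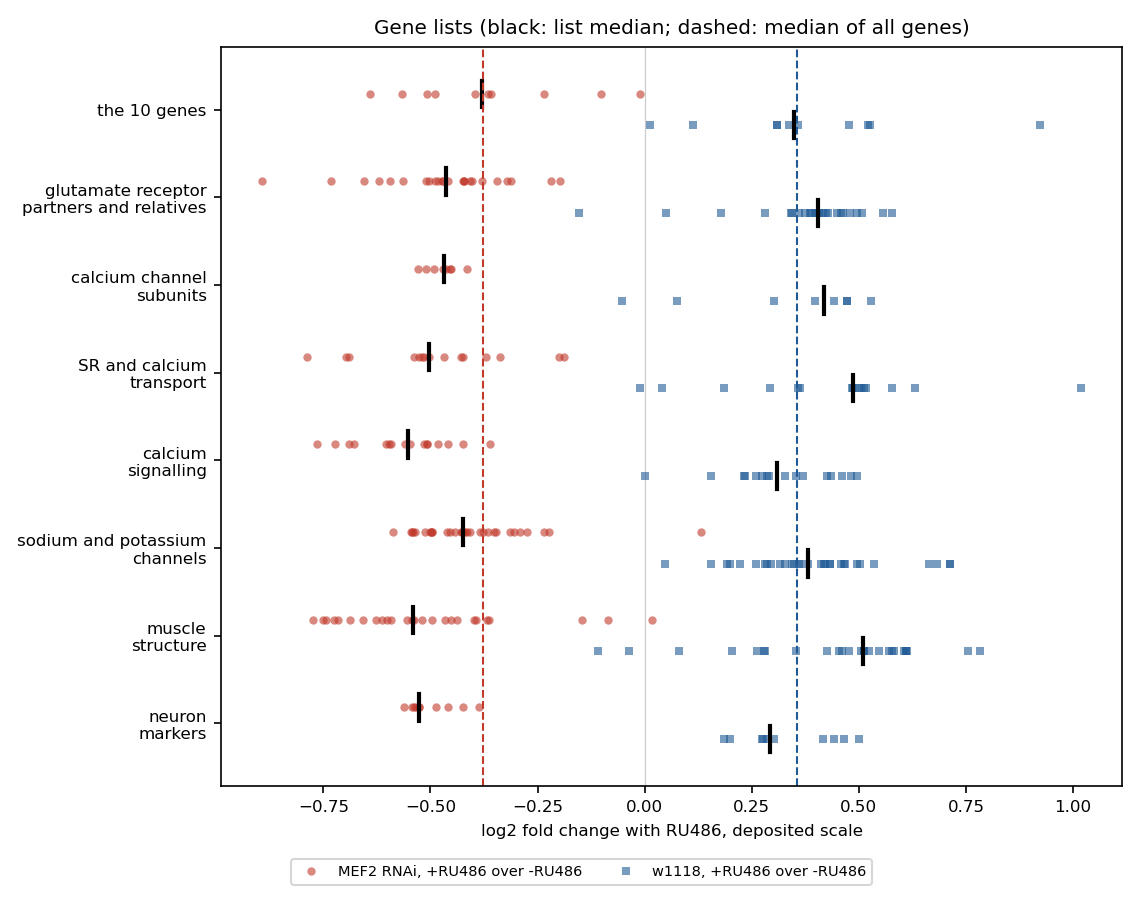
Log2 fold change with RU486 on the deposited scale (horizontal axis) of every gene of each list, in MEF2RNAi flies (red circles) and w1118 flies (blue squares), with black bars at list medians and dashed lines at the medians of all genes. The median of the 10 genes lies beside that of all genes in both genotypes (-0.38 and 0.35), and that of calcium signalling is at -0.55 in MEF2RNAi flies.

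The genes also differ in size, which the choice of names did not use. In the BDGP6 annotation each of the 5 receptor genes has 1 transcript with between 2949 and 3444 bases of exon. The calcium handling and channel genes hold between 8264 bases of exon for SERCA and 16405 for RyR, with 9 to 60 transcripts, the most for para. Cnx14D lies within the span of para on the same strand and was not matched in the table. Values per gene add up these transcripts, so a switch between isoforms would not be seen.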

How the data were processed

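For 13012 genes and 4 libraries the authors deposited log2 values, in columns that carry the sample titles. The sum over a gene's values is within 7.0e-15 of 0. Libraries were made with a stranded total RNA kit (TruSeq). How reads were aligned, counted and normalized, and on which build, is not given in the sources used here, and depth is unknown, so no interval or floor is given. RU486 was at 100 µM in food by the study's general methods.

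Differences of log2 values were taken between libraries, and fold changes are 2 to their power, with limits of 0.65 and 1.5. Members and gene lists were chosen with earlier results of these data known. Names in the lists were matched by symbol or synonym, and 3 (stol, Ca-Ma2d, SclA) were not matched. All members were named, list genes past a limit in either genotype or among the 2 highest or lowest of their list, and the 3 nearest patterns. A list gene that this rule names is not reported here. Coordinates and overlaps are from Ensembl release 115 (BDGP6), which may not be the authors' build. Python 3.11.15, numpy 2.4.6, pandas 2.3.3 and matplotlib 3.10.9 were used. Alternatives were 3 other library levels, other limits, and the members without para and slo.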

Additional observations from a re-analysis of the deposited data

Results flagged for a closer look

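For 3 genes the change with RU486 pointed in opposite directions in the genotypes, lower in MEF2RNAi flies and higher in controls, both as deposited and relative to all genes. As deposited, all 10 genes and 83.7% of all genes did so. The share of all genes that did so on both scales is not given here. The difference between the genotypes' log2 changes was -1.12 for SERCA (percentile 2.74 of all genes), -0.89 for Ca-alpha1D (percentile 31.9) and -0.85 for GluRIID (percentile 40.1) on the deposited scale. With 1 library per condition the difference was not tested. Relative to all genes the changes of SERCA were -0.28 in MEF2RNAi flies and 0.13 in controls, those of GluRIID -0.12 and 0.01, and those of Ca-alpha1D under 0.01 below 0 and 0.18. Relative to ribosomal protein genes, all 3 had changes of 1 sign in both genotypes (SERCA -0.17 and -0.01, GluRIID -0.02 and -0.13, Ca-alpha1D 0.10 and 0.04). Relative to genes with a value off 0, GluRIID (-0.075 and -0.035) and Ca-alpha1D (0.048 and 0.13) also had 1 sign, and SERCA had -0.23 and 0.084.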

How the results depend on the processing

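The level given to the libraries moved every median. For the 10 genes upon RU486 feeding in MEF2RNAi flies, the median log2 change was -0.38 as deposited, -0.016 relative to all genes, 0.088 relative to ribosomal protein genes and 0.033 relative to genes with a value off 0. In controls it was 0.35, then -0.0017, -0.14 and -0.045. For MEF2RNAi over w1118 with RU486 it was -0.51, then -0.17, -0.11 and -0.12, and without RU486 it was 0.32, then -0.050, -0.23 and -0.097. Leaving out para and slo gave -0.36 in MEF2RNAi flies, 0.42 in controls and -0.55 between the genotypes with RU486. The count of lower genes was 1, became 0 on each of the 3 other levels (0.3%, 0.0922% and 0.161% of all genes), and became 7 with a lower limit of 0.8, which 57.4% of all genes met. None of the 10 was called higher under any of these settings. The direction was the same on all 4 levels for 4 of the 10 genes in MEF2RNAi flies (GluRIIC, GluRIID, SERCA, slo), 3 in controls (GluRIIA, RyR, Ca-alpha1D), 8 between genotypes with RU486 and 2 without it (GluRIIB, GluRIIC). The share of all genes that kept their direction is not given here. No paired analysis was possible because there is a single library for every condition and no result comes from a test.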

Other observations

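The pattern of para, above 0 in w1118 flies without RU486 where most genes were below 0, was looked for in the other lists after its values were seen. It was found for cac and CG4587 among 8 genes of the calcium channel list, and Ekar and clumsy among 24 receptor partners and relatives. SK showed it among 31 genes of the sodium and potassium channel list, and Frq1 among 16 calcium signalling genes. Amph showed it among 15 sarcoplasmic reticulum and transport genes, Zasp67 and TpnC4 among 26 muscle structure genes, and GluRIIB among the 10 genes. It was found for 6.81% of all genes and for none of the muscle, neuron, glia, fat body, hemocyte and germline markers. In w1118 flies without RU486 the highest of these values were 0.21 for TpnC4, 0.15 for Ekar, 0.15 for Zasp67 and 0.12 for CG4587.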
